A study of Mus musculus with 270 samples.

Results

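Kidney and lung of the same young adult mice were compared by bulk RNA sequencing, which reads the pooled poly(A) RNA of all cells of a tissue piece. The series holds 270 libraries, of which 18 were used here, the kidney and the lung of each of 9 mice aged 5 months. They were chosen by the organ, age and mouse number in the labels, and kidney and lung values were compared within each mouse. All animals were male C57BL/6J mice of wild-type (WT) genotype, without transgene or treatment, obtained as a single cohort and kept in groups of age-matched mice. The organs were snap frozen and ground to powder as whole tissue, so that every cell type of an organ, its blood and any tissue attached to it could enter the RNA. Libraries of the 36 mice of the other 5 ages, which run from 3 to 26 months, served to look at the same differences in animals that the comparison had not used.

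The kidney filters blood in the glomerulus, whose outer wall is made by podocytes, and then recovers salt, water, glucose, amino acids and phosphate along a chain of tubule segments, from the proximal tubule through the thick ascending limb and the distal convoluted tubule to the collecting duct. This transport is paid for by mitochondria, and the proximal tubule also makes glucose and secretes organic ions. The lung exchanges gas across flat alveolar type 1 cells laid against capillaries, while alveolar type 2 cells make surfactant, and club and ciliated cells line the airways. Its stretch and recoil rest on elastic fibres and collagen.

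Levels are given as reads of a gene per 1000000 reads of its library (RPM), since the values of the 2 organs had been normalized separately. A gene entered the test where it reached 5 RPM in 5 or more of the 18 libraries, which left 14081 genes. Differences are given as kidney minus lung of log2(RPM + 1), averaged over the 9 mice with their standard error (SE), so that 1 unit is a doubling, and changes of genes near 0 are understated. A gene was called where limma's paired test gave a Benjamini-Hochberg adjusted p of at most 0.05 over all genes tested. By this rule, 4238 genes were higher in kidney (30.1% of those tested) and 4291 in lung (30.5%), and 60.6% of genes were called in either direction. With a log2 difference of at least 2, 1205 genes (8.56%) were higher in kidney and 2016 (14.3%) in lung. The lowest library of one organ lay above the highest of the other for 1660 genes higher in kidney (11.8%) and 1930 higher in lung (13.7%). As most genes differed between the organs, counts within a gene list are read against these shares. The limit was reached in 5 or more libraries of both organs by 10113 genes, of which 3358 were higher in kidney and 2443 in lung, in kidney alone by 1117 and in lung alone by 2307. Of the latter groups 861 and 1829 genes were called, and 0 in the other direction, since the limit selects for the higher organ. Counts within a list are therefore given mainly for the members that entered through both organs. Members that entered through 1 are described by their levels or log2 differences, whose direction was set by the limit. In bulk RNA, fewer cells of a type and less RNA per cell cannot be told apart.

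Libraries held between 5230524 and 14397811 reads, and 6 of them stood apart from the rest of their organ. A list of 12 brain genes, written after the data had been seen, summed to 8118 RPM in the kidney of mouse c2231 and 11414 in that of mouse c3670, against 64.2 to 673 RPM in the other 7 kidneys. In lung, the list summed to 6065 RPM in mouse c2254, 3438 in mouse c2287 and 3019 in mouse c2346, against 333 to 1530 RPM in the other 6 lungs. The lungs of mice c2231 and c2346 had a read in 30828 and 29111 genes, compared with 18026 to 20066 in the other 7. Hepatocyte genes summed to 8942, 3230 and 2755 RPM in the lungs of mice c2254, c2287 and c2346. These 5 mice were left out in a second analysis, chosen after seeing the data, which kept mice c2275, c2318, c2349 and c3671 and called 4497 genes higher in kidney (31.9%) and 4971 in lung (35.3%). Of the genes called in all 9 mice, 3784 of 4238 and 3889 of 4291 were called in the same direction in these 4. The source of the foreign transcripts was not tested.

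Both organs carried their labelled marker. *Kap*, the kidney androgen-regulated protein of proximal tubule cells, lay between 3004 and 15936 RPM in kidney (median 12123) and between 22.8 and 1474 RPM in lung (median 102). Every kidney lay above every lung, the lowest kidneys were those of mice c3670 and c2231, and the highest lung was that of mouse c2254. The log2 difference was 6.04 (SE 0.64, adjusted p = 7.10e-06 by limma), and 7.67 in the 4 mice. *Sftpc*, surfactant protein C of alveolar type 2 cells, was listed at 0 in 7 kidneys and reached 1.63 RPM in that of mouse c2275, against 285 to 2004 RPM in lung (median 1638). The lungs of mice c2231, c2346 and c2254 were the low ones, with 285, 371 and 377 RPM. *Sftpc* entered the test through lung alone, and its log2 difference was -9.76 (SE 0.34), and -10.42 in the 4 mice.

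**Figure D1:**
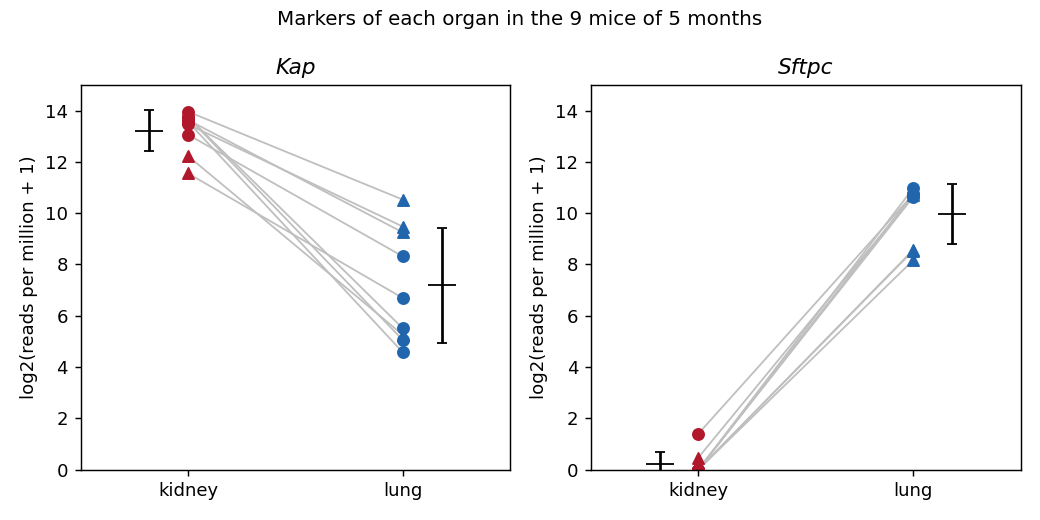
Levels of *Kap* and *Sftpc* as log2(RPM + 1) in the kidney (red) and lung (blue) of the 9 mice. Grey lines join the organs of a mouse, triangles are libraries that stand apart, and the black bars give the mean and SD of 9 libraries. *Kap* is at 3004 RPM or more in every kidney and at most 1474 in lung, and *Sftpc* is at most 1.63 RPM in kidney.

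The called genes with the same direction in all 9 mice and a mean of at least 100 RPM in the higher organ numbered 1008 for kidney and 814 for lung. In kidney the 10 largest differences, predicted genes left out, ran from 6.28 to 5.64. They belonged to *Acy3* (an aminoacylase of the proximal tubule), *Erich4*, *Fxyd2* (a subunit of the sodium pump), *Miox* (myo-inositol oxygenase), *Kap*, *Acsm2* (a medium-chain acyl-CoA synthetase), *Slc34a1* (a sodium-phosphate cotransporter), *Atp6v1g3* (a proton pump subunit), *Ggt1* (gamma-glutamyltransferase) and *Umod* (uromodulin). Acy3 lay between 322 and 1872 RPM in kidney (median 1395) and between 2.08 and 111 RPM in lung (median 7.70). In lung the 10 largest ran from -12.64 to -7.37. *Scgb1a1*, the secretoglobin of club cells, led with 3491 to 18186 RPM in lung (median 11700), while it was listed at 0 in 6 kidneys and reached 18.1 RPM in the kidney of mouse c2275. It was followed by *Sftpc*, *Cxcl15* (lungkine, a chemokine of lung epithelium), *Sftpd* (surfactant protein D), *Scgb3a2*, *Sfta3-ps*, *Sftpa1*, *Sftpb*, *Cbr2* (a carbonyl reductase) and *Cyp2f2* (a cytochrome P450 of club cells). All 20 had ranges that did not overlap between the organs. They had been picked from these same libraries for large differences with the same direction in all 9 mice. The lack of overlap largely follows from that choice and is not read as a separate result. The 10 lung genes also entered the test through lung alone, and *Erich4* and *Atp6v1g3* through kidney alone, so that their direction was set by the limit.

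Along the nephron, 9 of 10 genes of the early proximal tubule list and 6 of 9 of the thick ascending limb list entered the test through both organs, and all of these were higher in kidney. *Slc5a2*, the glucose transporter SGLT2, lay between 134 and 507 RPM in kidney (median 399) and between 0.486 and 45.9 RPM in lung (median 9.33), a log2 difference of 5.48 (SE 0.54). *Lrp2*, the endocytic receptor megalin, ranged from 984 to 3873 RPM in kidney (median 3392) and from 51.7 to 425 RPM in lung (median 150). The organs did not overlap for either gene. The partner of megalin, *Cubn*, overlapped, with 11.5 to 165 RPM in kidney and 0.471 to 83.5 RPM in lung, and its log2 difference was 2.79 (SE 0.60). In the thick ascending limb, *Slc12a1*, the target of loop diuretics, lay between 643 and 2759 RPM in kidney (median 2233) and between 4.86 and 399 RPM in lung (median 45.4). *Umod*, which that segment secretes into urine, ranged from 80.7 to 674 RPM in kidney (median 492) and from 0.347 to 40.0 RPM in lung (median 7.38). Of the magnesium and calcium claudins of the segment, which entered through kidney alone, *Cldn16* had a log2 difference of 2.22 (SE 0.36) and *Cldn19* one of 3.64 (SE 0.36).

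Kidney genes were not near 0 in every lung. Relative to the median of the 7 kidneys that do not stand apart, the early proximal tubule list summed to 16.5% in the lung of mouse c2254, 12.0% in mouse c2346, 7.44% in mouse c2287, 5.68% in mouse c2231 and 4.87% in mouse c2275, and to 1.60 to 1.89% in the other 4 lungs. For the thick ascending limb list the same 5 lungs held 14.1, 8.78, 5.46, 4.79 and 4.15%, and the other 4 held 0.370 to 0.987%. The order of the 5 lungs was the same for both lists, and 4 of them are libraries that stand apart. The distal convoluted and connecting tubule list had another order, with 20.2% in mouse c2254, 12.9% in c2346, 10.6% in c2231 and 10.3% in c2287. There the lung of mouse c3670 (9.62%) lay above that of mouse c2275 (9.22%), and the remaining lungs held 4.15 to 5.10%. In the other direction, the club cell list summed in kidney to 0.00409 to 0.169% of the median of the 5 lungs that do not stand apart, and the alveolar type 2 list to 1.87 to 3.41%. Their part in the differences between organs was not tested beyond the 4 mice.

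Further down the nephron the lists split. In the list of the distal convoluted and connecting tubule, 5 of 6 genes entered through both organs, of which 4 were higher in kidney and 1 in lung. *Slc12a3*, the thiazide-sensitive cotransporter, had a log2 difference of 5.61 (SE 0.48) and the calcium-binding *Calb1* one of 5.03 (SE 0.51). The magnesium channel *Trpm6* went the other way, with 10.5 to 45.9 RPM in kidney (median 36.2) and 47.8 to 179 RPM in lung (median 97.6). All 9 lungs lay above all 9 kidneys, and the log2 difference was -1.65 (SE 0.33, adjusted p = 9.15e-04), with -1.32 in the 4 mice and -1.39 in the 36 mice of other ages. *Trpv5*, the apical calcium channel, overlapped between organs and was not called (1.27, SE 0.53, adjusted p = 0.0555), while it was 2.76 in the 4 mice.

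In the collecting duct, 4 of 6 tested principal cell genes entered through both organs, of which 2 were higher in kidney, 1 in lung and 1 was not called. Of 9 tested intercalated cell genes 6 entered through kidney alone, and of the other 3, 2 were higher in kidney and 1 in lung. *Aqp2*, the vasopressin-regulated water channel, lay between 42.8 and 118 RPM in kidney and between 0.929 and 11.9 RPM in lung. *Hsd11b2*, the enzyme that keeps cortisol-type steroids off the mineralocorticoid receptor, lay between 12.6 and 52.0 RPM in kidney and between 0 and 5.22 RPM in lung. For *Aqp2* and *Hsd11b2* the organs did not overlap, but both genes entered through kidney alone, so that their direction was set by the limit. *Scnn1g*, the gamma subunit of the epithelial sodium channel ENaC, was higher in lung, with 8.41 to 29.6 RPM in kidney and 22.1 to 114 RPM in lung (log2 difference -1.24, SE 0.29), whereas the alpha subunit *Scnn1a* was higher in kidney (0.81, SE 0.29, adjusted p = 0.0306). ENaC clears fluid from alveoli as well as sodium from urine. *Gata3* was not called, at -0.10 with an SE of 0.29. Among intercalated cell genes that entered through kidney alone, *Atp6v1g3* reached 5.77 (SE 0.49) and the anion exchanger *Slc4a9* 4.11 (SE 0.48). Another of them, *Foxi1*, the transcription factor of these cells, lay between 4.18 and 14.9 RPM in kidney and 0 and 3.75 RPM in lung. The proton pump subunit *Atp6v0d2*, which macrophages and osteoclasts also use, was higher in lung by a small margin (-0.85, SE 0.34, adjusted p = 0.0443), and was not called in the 4 mice (-0.70, adjusted p = 0.0600).

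Of 9 tested podocyte genes 7 entered through both organs, of which 1 was higher in kidney, 1 was higher in lung and 5 were not called. *Nphs1*, the slit diaphragm protein nephrin, entered through kidney alone and had a log2 difference of 2.33 (SE 0.55). Nephrin lay between 7.65 and 23.6 RPM in kidney and between 0 and 35.3 RPM in lung, where the lungs of the 4 mice did not exceed 1.52 RPM. The phospholipase *Plce1* was higher in lung, with 86.3 to 289 RPM against 11.5 to 24.5 RPM in kidney, without overlap (-3.45, SE 0.18). *Podxl*, *Synpo*, *Wt1*, *Ptpro* and *Magi2*, which endothelium, mesothelium, neurons or other cells also use, had log2 differences between -0.44 and 0.29.

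On the lung side, most list members entered the test through lung alone, namely 8 of 12 alveolar type 2 genes, 4 of 9 alveolar type 1 genes, all 7 tested club and secretory genes and 8 of 11 ciliated cell genes. Of the members that entered through both organs, 2 of 3 alveolar type 2 genes, 5 of 5 alveolar type 1 genes and 2 of 3 ciliated cell genes were higher in lung. *Slc34a2*, the phosphate cotransporter of type 2 cells, lay between 2.49 and 6.91 RPM in kidney and between 83.9 and 2342 RPM in lung (median 447). *Ager*, the receptor RAGE of type 1 cells, was at most 1.30 RPM in kidney and ranged from 54.7 to 369 RPM in lung (median 280), a log2 difference of -6.91 (SE 0.38). Neither gene overlapped between organs, but both entered through lung alone, so that their direction was set by the limit. *Emp2*, a membrane protein of type 1 cells, had a log2 difference of -6.19 (SE 0.40), and the ciliary dynein *Dnah5* one of -6.20 (SE 0.36).

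Members of these lists also went against them. *Napsa*, the aspartic protease that matures surfactant protein B, lay higher in kidney, with 14.7 to 90.6 RPM (median 60.7) against 0.593 to 13.3 RPM in lung (median 1.16). This gene entered the test through kidney alone, so that its direction was set by the limit. The 2 highest lungs were those of mice c2231 and c2346, and all kidneys lay above all lungs (log2 difference 3.91, SE 0.50). It was 5.01 in the 4 mice and 4.15 in the 36 mice. *Abca3*, the lipid pump of lamellar bodies, was not called, with 37.9 to 165 RPM in kidney and 41.4 to 124 RPM in lung (0.41, SE 0.28, adjusted p = 0.217), and *Ccdc39* of cilia was not called either (-0.17, SE 0.28). The type 1 genes *Spock2* and *Akap5* reached 634 and 137 RPM in the kidney of mouse c3670. The type 1 list summed to 583 RPM in the kidney of mouse c2231 and 822 in that of mouse c3670, the 2 kidneys with brain transcripts, against 34.7 to 74.3 RPM in the other 7.

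**Figure D2:**
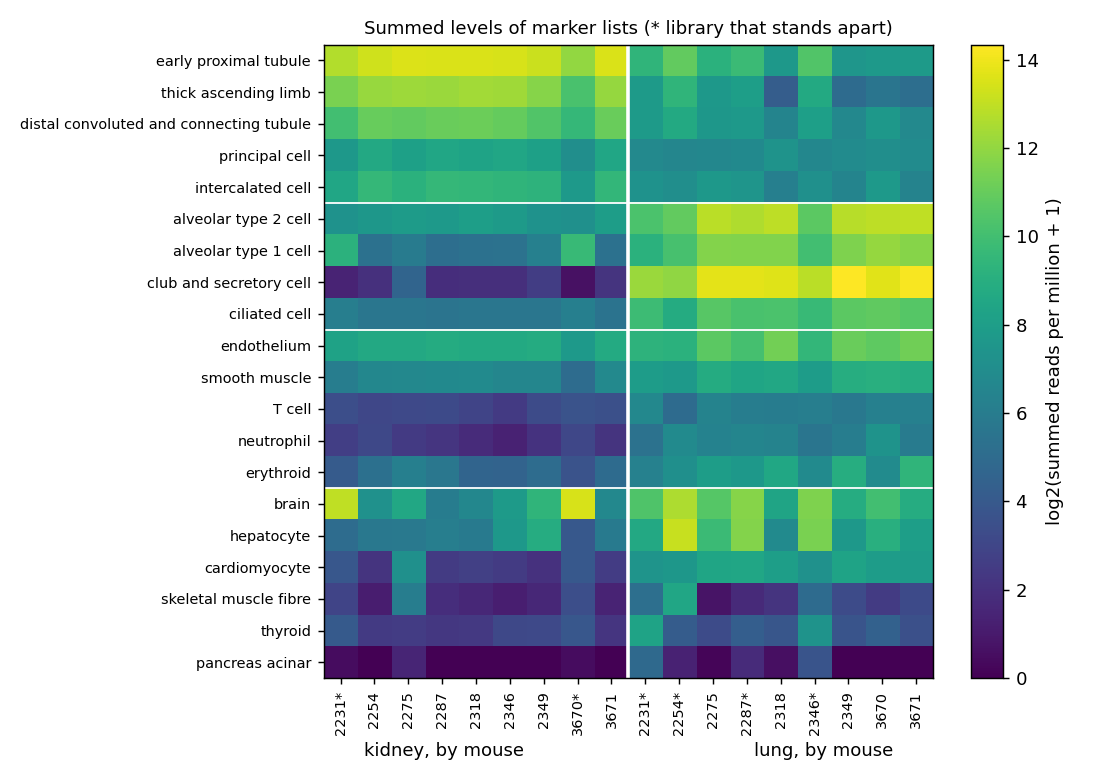
Summed level of the members of marker lists, as log2(summed RPM + 1), in the 9 kidneys (left) and 9 lungs (right), by mouse. White lines separate kidney, lung, shared and foreign cell types, and stars mark libraries that stand apart. Brain genes reach 8118 and 11414 RPM in the kidneys of mice c2231 and c3670, and hepatocyte genes 8942 RPM in the lung of mouse c2254.

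Of the cell types that both organs hold, endothelium had 9 of 10 genes that entered through both organs, of which 7 were higher in lung and 2 were not called, and 1 that reached the limit in neither organ alone. *Pecam1*, an adhesion molecule of all endothelium, lay between 48.8 and 87.3 RPM in kidney and between 178 and 1087 RPM in lung (median 782), a log2 difference of -2.88 (SE 0.31). *Emcn*, *Kdr* and *Egfl7* were not called, at 0.37 (SE 0.23), -0.11 (SE 0.26) and -0.73 (SE 0.30). Of 6 tested genes of the lung capillary list 3 entered through lung alone, and of the other 3, 1 was higher in lung, 1 was higher in kidney and 1 was not called. *Tmem100* of capillaries had a log2 difference of -6.58 (SE 0.51). *Car4*, the carbonic anhydrase IV of capillaries and of the proximal tubule, was higher in kidney, with 54.1 to 336 RPM against 16.0 to 48.9 RPM and no overlap (2.82, SE 0.29). In the lung fibroblast list 4 of 7 tested genes entered through lung alone, and of the other 3, 1 was higher in each organ and 1 was not called. *Wnt2* (-4.08, SE 0.26) and *Fgf10* (-2.99, SE 0.27) were higher in lung, while the methyltransferase *Inmt* was higher in kidney (1.55, SE 0.29).

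Of 4 smooth muscle genes that entered through both organs 3 were higher in lung. *Actg2* had a log2 difference of -4.77 (SE 0.37), and *Myh11* was not called (-0.66, SE 0.29, adjusted p = 0.0611). All 4 tested T cell genes and all 3 tested neutrophil genes entered through lung alone, so that their direction was set by the limit, and 4 and 3 further members were not tested. Of 4 tested B and plasma cell genes, 2 entered through both organs and were higher in lung. *S100a9* of neutrophils lay between 0 and 2.64 RPM in kidney and between 5.69 and 121 RPM in lung. In the alveolar macrophage list only 2 of 8 genes reached the limit for testing, *Chil3* (-3.41, SE 0.51) and the cholesterol exporter *Abcg1* (-2.06, SE 0.32). Both were higher in lung, but 1 of the 2 entered through lung alone, so that its direction was set by the limit. Of 4 tested erythroid genes 3 entered through lung alone. The haemoglobin alpha genes *Hba-a1* and *Hba-a2* were higher in lung, at -3.86 (SE 0.37) and -4.16 (SE 0.40), while *Hbb-bs* and *Hbb-bt* were not called in 9 mice (-0.61 and -0.46) and were in the 4 mice (-0.90 and -1.21). The 2 alpha genes are nearly identical and can share reads.

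Of the foreign lists, 4 of 8 hepatocyte genes entered through both organs, of which 1 was higher in lung and 3 were not called. *Alb* lay at 52.7 to 4371 RPM in lung (median 278) and 3.44 to 239 RPM in kidney. Over all 8 genes, 0 were higher in kidney and 5 in lung in the 9 mice, as in the 36 mice of other ages (0 and 5), while in the 4 mice 3 were higher in kidney and 4 in lung. All 4 tested cardiomyocyte genes entered through lung alone, and 4 others were not tested. *Myh6*, the heavy chain of cardiac myosin, lay between 31.2 and 163 RPM in every lung, and between 0.411 and 3.42 RPM in the kidneys except that of mouse c2275, which had 75.0. Its log2 difference was -4.50 (SE 0.50), and -4.32 in the 4 mice. In mice, the walls of pulmonary veins hold cardiac muscle. Of the list of 12 brain genes, 3 were called, all higher in lung (*Gria1* at -3.00, *Stmn2* at -2.18 and *Mbp* at -1.93). Skeletal muscle, adrenal cortex, adipocyte and thyroid lists had 9 tested genes, and none of these entered through both organs. Of the 9, 3 were higher in lung (*Cyp11a1*, *Plin1* and *Tshr*) and *Adipoq* was higher in kidney (1.81, SE 0.52). Because of the limit, these directions are not read as differences between the organs. The pancreas, thymocyte, squamous epithelium and germ cell lists had no tested gene.

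Water channels differed in which organ held which. Of 9 tested aquaporins, 7 were higher in kidney and 2 in lung, of which 5 of the former, and none of the latter, entered through both organs. *Aqp1* of proximal tubule and capillaries lay between 99.8 and 372 RPM in kidney (median 346) and between 9.64 and 50.6 RPM in lung (median 32.2), with no overlap (3.12, SE 0.23). The collecting duct channels *Aqp2*, *Aqp3* and *Aqp6* differed by 4.42 (SE 0.34), 3.23 (SE 0.33) and 4.02 (SE 0.37), and *Aqp11*, an intracellular channel, by 2.47 (SE 0.23). None of these 4 overlapped between organs, but *Aqp2* and *Aqp6* entered through kidney alone, so that their direction was set by the limit. *Aqp5*, the channel of alveolar type 1 cells and airway glands, was listed at 0 in 6 kidneys and at most at 0.156 RPM. In lung it had 3.74 to 38.9 RPM (log2 difference of -4.94 in the 4 mice). The glycerol channel *Aqp7* was higher in kidney (1.69, SE 0.36), and *Aqp9*, the glycerol channel of hepatocytes and leukocytes, was higher in lung (-2.91, SE 0.55), with its highest lungs, 24.5 to 44.5 RPM, being those of the 4 mice whose lung stands apart, against 1.04 to 9.28 RPM in the other 5.

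Phosphate cotransporters were also split between the organs, but *Slc34a2* entered the test through lung alone, and *Slc34a3* and *Slc20a1* through kidney alone. For these genes the direction was set by the limit, and the 2 that entered through both organs were higher in kidney. *Slc34a1* lay between 1029 and 3469 RPM in kidney (median 3033) and between 5.63 and 353 RPM in lung (median 21.7), a log2 difference of 5.95 (SE 0.57), and *Slc34a2* had one of -6.45 (SE 0.48). Both genes code for sodium-phosphate cotransporters, the one recovering phosphate in the proximal tubule and the other acting in the alveolus. *Slc34a3* was higher in kidney (3.19, SE 0.43), as was *Slc20a2* (0.70, SE 0.23, adjusted p = 0.0188). *Slc20a1* was not called (1.58, SE 0.66, adjusted p = 0.0549), and its 2 highest kidneys, 68.8 and 94.3 RPM, were those of mice c2231 and c3670, while the other 7 lay between 9.64 and 25.5 RPM. In the 4 mice it was higher in kidney (2.43, adjusted p = 4.99e-04), and in the 36 mice too (1.42, adjusted p = 5.86e-05).

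**Figure D3:**
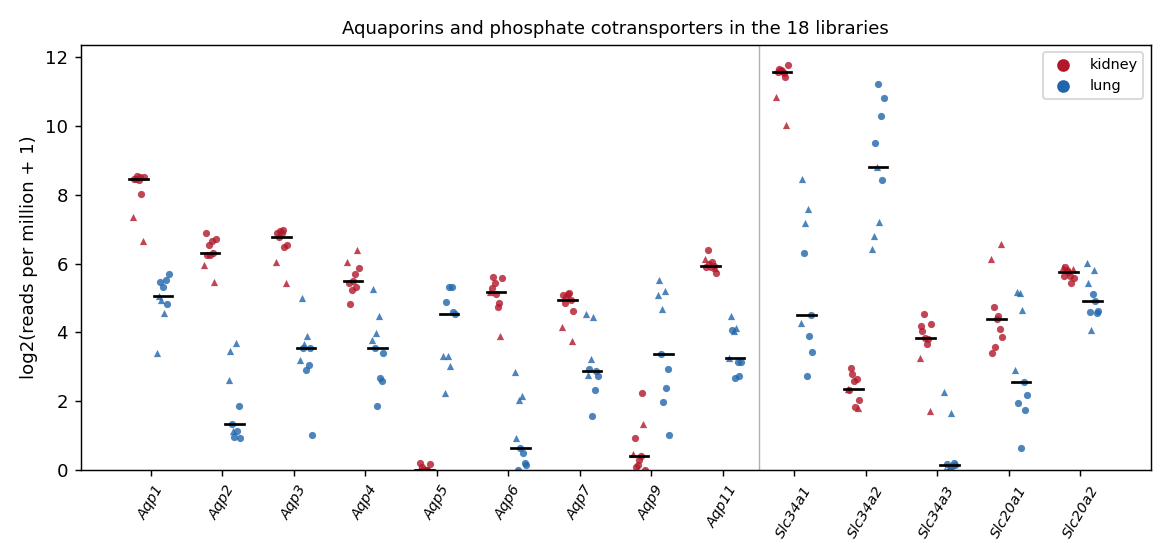
Levels of aquaporins (left) and phosphate cotransporters (right) as log2(RPM + 1) in 9 kidneys (red) and 9 lungs (blue). Each point is a library, triangles are libraries that stand apart, and black bars are medians. *Aqp5* and *Slc34a2* lie higher in lung, and *Aqp1*, *Aqp2*, *Aqp3*, *Aqp6* and *Slc34a1* higher in kidney, without overlap. Of these, *Aqp5* and *Slc34a2* entered the test through lung alone, and *Aqp2* and *Aqp6* through kidney alone.

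Among claudins, which set the ion selectivity of tight junctions, 7 of 15 tested genes entered through both organs, of which 4 were higher in kidney and 1 in lung. *Cldn2*, the cation pore of the proximal tubule, lay between 82.4 and 709 RPM in kidney (median 591) and between 1.19 and 52.0 RPM in lung (5.42, SE 0.51). *Cldn18* of alveolar epithelium was at most 2.62 RPM in kidney and ranged from 32.2 to 448 RPM in lung (-6.33, SE 0.42). *Cldn34c1* (-3.55), the endothelial *Cldn5* (-2.25) and *Cldn3* (-1.61) were also higher in lung. Of these, *Cldn5* entered through both organs. *Cldn18*, *Cldn34c1* and *Cldn3* entered through lung alone, so that their direction was set by the limit. Of 6 carbonic anhydrases that entered through both organs 4 were higher in kidney and 1 in lung. *Car12* had a log2 difference of 4.79 (SE 0.56) and *Car2* one of 2.56 (SE 0.30). *Car8*, a member without catalytic activity, was higher in lung, with 81.9 to 157 RPM against 8.41 to 16.0 RPM (-3.16, SE 0.19). In the list of organic ion and amino acid transporters 13 of 18 tested genes entered through both organs, and all 13 were higher in kidney. The organic anion transporter *Slc22a6* differed by 5.57 (SE 0.52) and *Slc6a18* by 5.17 (SE 0.57). The proton-coupled transporter *Slc36a2* was higher in lung (-2.86, SE 0.25), with 7.63 to 28.5 RPM against 0.467 to 2.80 RPM. It entered through lung alone, so that its direction was set by the limit. The genes *Slc22a19*, *Slc22a28* and *Slc22a30* are close paralogs and can share reads.

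Hormone axes that link these organs were divided gene by gene. In the renin-angiotensin system, which raises blood pressure through angiotensin II, 10 of 12 tested genes entered through both organs, of which 5 were higher in kidney, 2 in lung and 3 were not called. The protease renin, *Ren1*, entered through kidney alone. Renin lay between 6.69 and 21.9 RPM in kidney and was listed at 0 in 5 lungs, with 7.59 and 5.36 RPM in the lungs of mice c2231 and c2346 (3.19, SE 0.47). Its substrate *Agt* was not called over 9 mice (1.37, SE 0.57, adjusted p = 0.0520) and had 24.3 to 37.2 RPM in kidney and 1.39 to 97.3 RPM in lung, with 2.66 in the 4 mice. The converting enzyme *Ace* was not called (1.07, SE 0.46, adjusted p = 0.0599). The lungs of the 4 mice had 18.8 to 46.2 RPM of *Ace* and the other 5 lungs 2.02 to 6.48 RPM, and in the 4 mice the log2 difference was -0.16.

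The peptidases *Enpep* (1.47, SE 0.22) and *Anpep* (1.73, SE 0.38) were higher in kidney, as was the prorenin receptor *Atp6ap2* (1.10, SE 0.37), the last of which was not called in the 4 mice (0.39, adjusted p = 0.118). The receptor gene *Agtr1a* was higher in kidney, with 23.9 to 60.7 RPM against 4.71 to 35.0 RPM (1.83, SE 0.31). Its paralog *Agtr1b* entered through lung alone, so that its direction was set by the limit. *Agtr1b* had 0.970 to 54.4 RPM in lung against 0.137 to 0.446 RPM in kidney (-2.73, SE 0.52). Its highest lungs were those of mice c2231 (54.4 RPM) and c2346 (31.9 RPM). The lungs of the 4 mice had 0.970 to 6.18 RPM, with a log2 difference of -1.65. The mineralocorticoid receptor *Nr3c2* was higher in lung without overlap, with 129.5 to 303 RPM against 51.5 to 87.6 RPM (-1.36, SE 0.17), and the peptidase *Lnpep* was higher in lung as well (-0.92, SE 0.19). *Mme*, the peptidase neprilysin, was not called (0.28, SE 0.27).

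Androgens shape the kidney of male mice, and of 9 androgen-responsive kidney genes that entered through both organs 8 were higher in kidney. *Slc7a13*, an amino acid transporter, differed by 5.59 (SE 0.59) and *Nudt19* by 4.87 (SE 0.35). *Odc1*, the enzyme that starts polyamine synthesis, lay between 160 and 1162 RPM in kidney and between 15.6 and 116 RPM in lung, without overlap. *Gusb* was not called (0.41, SE 0.17, adjusted p = 0.0551). *Cyp4b1*, a cytochrome P450 known from lung too, lay between 514 and 2557 RPM in kidney and between 56.1 and 250 RPM in lung (3.71, SE 0.28).

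Nearly all measured genes of mitochondrial respiration were higher in kidney. Of 44 nuclear genes of oxidative phosphorylation 42 entered through both organs, and 41 of these were higher in kidney. Summed, they took 5912 to 14276 RPM in kidney and 746 to 3673 RPM in lung. *Atp5b*, the beta subunit of the ATP synthase, lay between 774 and 2228 RPM in kidney (median 2021) and between 30.4 and 377 RPM in lung (median 60.0), a log2 difference of 4.13 (SE 0.35). Subunits of the other complexes differed by 3.49 (*Ndufv1* of complex I), 2.90 (*Sdhb* of complex II), 3.46 (*Uqcrc1* of complex III) and 2.97 (*Cox6a1* of complex IV), with SEs of 0.21 to 0.24. *Ndufa8* was not called (0.56, SE 0.43). In the 4 mice 43 of the 44 were called higher in kidney, and in the 36 mice all 44. All 37 genes of the mitochondrial genome are listed at 0 in each of the 18 libraries, so that nothing can be said of them.

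In fatty acid oxidation, 10 of the 13 genes that entered through both organs were higher in kidney, with the medium-chain dehydrogenase *Acadm* between 401 and 2614 RPM in kidney and between 32.9 and 200.3 RPM in lung (4.28, SE 0.25). The peroxisomal enzyme *Ehhadh* differed by 4.25 (SE 0.46), and *Cat*, *Hadhb* and *Ppara* were not called. In gluconeogenesis 5 of the 6 genes that entered through both organs were higher in kidney and 1 in lung. *Fbp1* differed by 5.07 (SE 0.53), *G6pc*, which releases free glucose, by 4.59 (SE 0.67), and the cytosolic *Pck1* by 3.68 (SE 0.52), while the mitochondrial *Pck2* was higher in lung (-0.86, SE 0.25, adjusted p = 0.0112). *Pck1* and *G6pc* reached 453 and 237 RPM in the lung of mouse c2254, which carries 8942 RPM of hepatocyte genes.

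**Figure D4:**
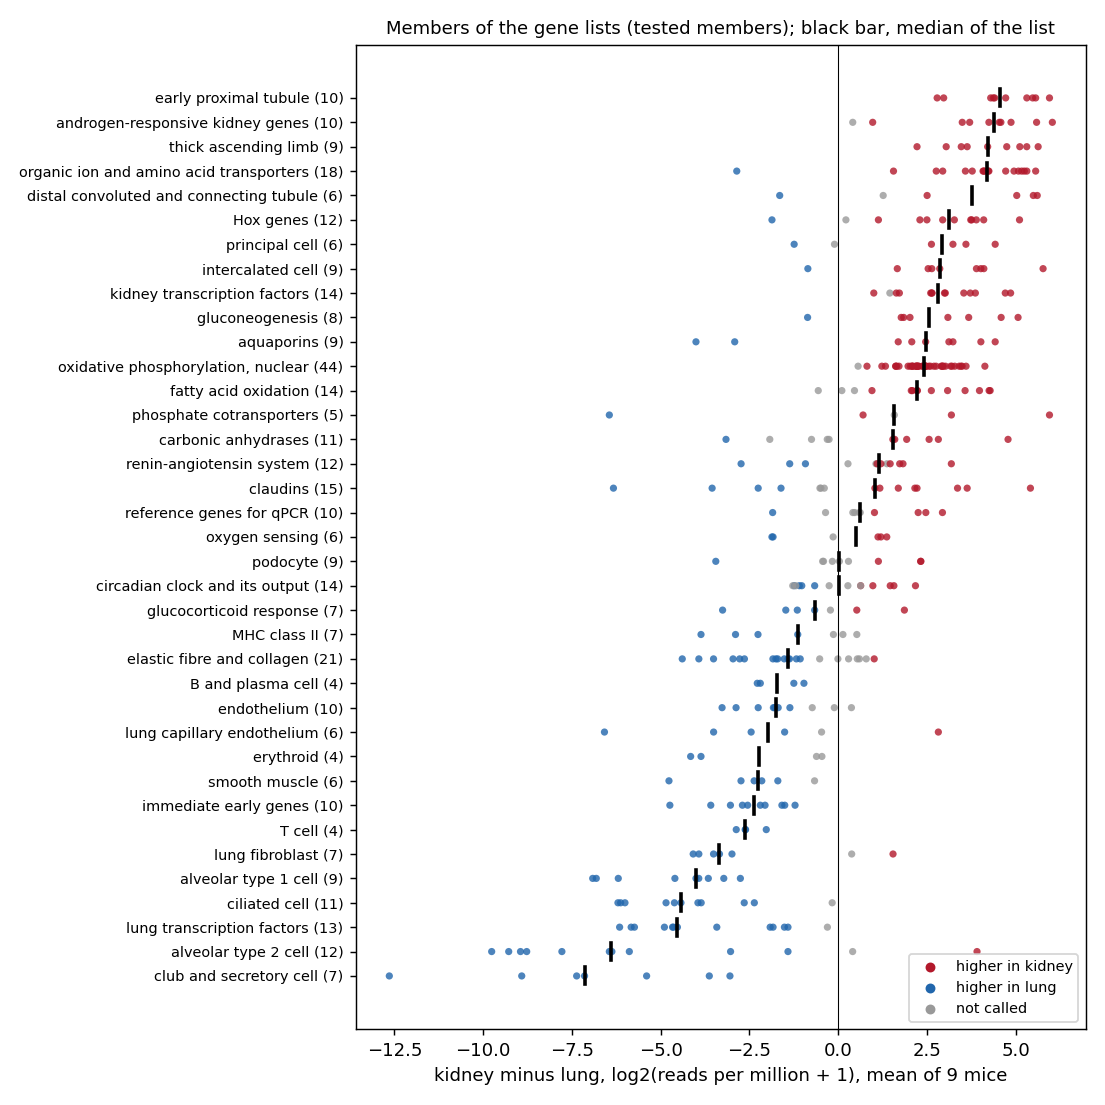
Log2 difference, kidney minus lung, of each tested member of the gene lists with at least 4 tested members, in 9 mice. Red points are genes called higher in kidney, blue higher in lung, grey not called, the black bars are list medians, and numbers in brackets are tested members. Members that entered through 1 organ alone are included, such as all 7 club and secretory genes, and the 7 lie on the lung side, with a median of -7.14.

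Extracellular matrix genes were mostly higher in lung. Of 17 genes of elastic fibres and collagen that entered through both organs, 11 were higher in lung, 1 in kidney and 5 were not called. Elastin, *Eln*, lay between 8.28 and 16.4 RPM in kidney and between 106 and 638 RPM in lung (median 286), with no overlap (-4.39, SE 0.26). *Mfap4* of elastic fibres differed by -3.92 (SE 0.48), *Col1a1* by -2.96 (SE 0.33) and *Col6a3* by -2.64 (SE 0.32). The basement membrane collagens did not move as a group, since *Col4a4* was higher in kidney (1.02, SE 0.24), *Col4a5* in lung (-1.07, SE 0.22), and *Col4a3* was not called (-0.01, SE 0.35). In the list of major histocompatibility complex class II genes, 2 of the 5 genes that entered through both organs were higher in lung. The transactivator *Ciita* was higher in lung (-3.86, SE 0.33), while *H2-Ab1*, *H2-Eb1* and *Cd74* were not called. Of 5 genes of oxygen sensing that entered through both organs 3 were higher in kidney and 1 in lung. The oxygen sensor *Egln1* was higher in kidney (1.12, SE 0.19), and *Epas1*, the factor HIF-2 alpha of endothelium and type 2 cells, was higher in lung (-1.83, SE 0.33), with 154 to 1130 RPM against 135 to 236 RPM.

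Transcription factors were mostly admitted to the test by 1 organ, 9 of 14 kidney factors through kidney alone and 9 of 13 tested lung factors through lung alone. Of those that entered through both organs, 4 of 5 kidney factors were higher in kidney and 3 of 4 lung factors in lung. Log2 differences stood for *Emx2* at 4.86 (SE 0.55), *Hnf4a* at 4.71 (SE 0.61) and *Pax8* at 3.87 (SE 0.49). *Hnf4a*, a nuclear receptor of proximal tubule and hepatocytes, lay between 499 and 1781 RPM in kidney and between 4.86 and 483 RPM in lung. *Hnf4g* was not called over 9 mice (1.46, SE 0.60, adjusted p = 0.0512) and was in the 4 mice (3.11). Of the lung factors, *Nkx2-1*, which specifies lung epithelium, was higher in lung, with 14.7 to 390 RPM against 0 to 2.85 RPM (-6.16, SE 0.62), as were *Foxf1* (-5.83, SE 0.48) and *Tbx5* (-5.74, SE 0.26). *Tbx2* was not called (-0.30, SE 0.34).

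Hox genes mark position along the body axis, and the adult kidney lies further back than the lung. Of 39 Hox genes in the tables, 12 are listed at 0 in every library, 15 did not reach the limit and 12 were tested. Of the 12, 8 entered through kidney alone, and of the other 4, 3 were higher in kidney and 1 in lung. *Hoxa10* had the largest difference of the 12, with 60.8 to 176 RPM in kidney and 0 to 24.1 RPM in lung (5.11, SE 0.47), followed by *Hoxb7* (4.10, SE 0.28) and *Hoxb9* (3.89, SE 0.38). *Hoxb4*, from the front part of its cluster, was higher in lung, with 47.7 to 658 RPM against 22.9 to 71.6 RPM (-1.86, SE 0.42, adjusted p = 0.00212), and *Hoxb3* was not called (0.22, SE 0.40). As members such as *Hoxa5* are among those listed at 0, a listed 0 says nothing of their expression.

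The promoters of the tested genes were searched for letters bound by factors of these lists. For 10807 tested genes with a RefSeq entry (GRCm38.p6), the window from 250 bases before to 50 bases after the start was read on both strands for GTTAATNAT (HNF1 type), CAAAGTCCA (HNF4 type) and CACTCAAG (NKX2-1 type), none of which contains another. The HNF1 type letters were in 2.12% of 894 genes higher in kidney by at least 2, in 1.10% of 1456 genes higher in lung by at least 2 and in 0.657% of all. The HNF4 type letters were in 1.68, 0.893 and 0.555%, and the NKX2-1 type letters in 1.01, 1.03 and 1.10%. These shares are descriptions without a test, and a match is not a site. Of 6 matches in listed genes with a called difference, 3 are shown in windows of 30 bases, with the match in capitals, the others being in *Alb*, *Cyp3a11* and *Cox5b*. *G6pc* and *Slc3a1*, the latter a subunit of the cystine transporter (2.95, SE 0.30), were higher in kidney. *Hc*, complement C5, was higher in lung (-5.88, SE 0.25), and its match lies on the other strand.
G6pc, chr11:101367485-101367514, plus strand, HNF1 type: gtgtgcccaaGTTAATAATtggctctgcca
Slc3a1, chr17:85028298-85028327, plus strand, HNF4 type: cttggctggaCAAAGTCCAgccatgattat
Hc, chr2:35061470-35061499, minus strand, HNF1 type: tctgacattaATAATTAACcggagaactaa

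Immediate early genes, which answer stimuli within minutes, were higher in lung in all 6 cases that entered through both organs, and 4 others entered through lung alone. *Fos* lay between 4.22 and 73.8 RPM in kidney (median 7.54) and between 45.7 and 1439 RPM in lung (median 280), a log2 difference of -4.74 (SE 0.70), and -6.64 in the 4 mice. The kidneys of mice c3670 and c2231, with 73.8 and 47.1 RPM, lay above the lowest lung, that of mouse c2231, and the other 7 kidneys below every lung. The list summed to 160 to 209 RPM in 7 kidneys and to 426 and 569 RPM in those of mice c2231 and c3670, where brain genes are high. The lowest lung was that of mouse c2231, with 282 RPM, and the other lungs held 579 to 3342 RPM. The part of these libraries in the difference was not tested further than by the 4 mice. *Cdkn1a*, the cell cycle inhibitor p21, was higher in lung (-1.47, SE 0.44, adjusted p = 0.0124), with 5.65 to 72.5 RPM against 4.54 to 18.0 RPM, and *Cdkn2a* did not reach the limit for testing. In the glucocorticoid response list 2 of 7 genes were higher in kidney and 4 in lung. *Zbtb16* was higher in lung (-3.25, SE 0.22), with 74.6 to 231 RPM against 5.13 to 28.5 RPM, and *Pdk4* was higher in kidney (1.87, SE 0.25), neither with overlap.

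Of 10 tested genes used as references in qPCR 5 were called, a share below the 60.6% over all genes. Through both organs entered 9, of which 3 were higher in kidney (*Sdha* at 2.94, *Pgk1* at 2.26 and *Ywhaz* at 1.02). *Actb* was higher in lung (-1.84, SE 0.58, adjusted p = 0.0155), and 5 were not called, among them *Hprt*, *Tbp*, *Ppia* and *Rpl13a*. *Gapdh* (2.47) entered through kidney alone, so that its direction was set by the limit. *Actb* lay between 666 and 1393 RPM in kidney and between 331 and 12112 RPM in lung (median 3194), and its difference was -3.38 in the 4 mice. *Gapdh* was between 11.6 and 30.5 RPM in kidney and between 0.0851 and 13.1 RPM in lung, and *B2m* is listed at 0 in all 18 libraries, although cells of both organs use these genes. *Gapdh*, *Ppia* and *Rpl13a* have near-identical copies in the genome with which they can share reads. No gene had a 95% interval of the difference within 0.3 of 0 on the log2 scale, since the narrowest interval reached 0.302 to either side of its estimate and the median one 0.664.

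In the 36 mice of the other ages 6117 genes were called higher in kidney (43.4%) and 5071 in lung (36.0%). Of the genes called at 5 months, 4225 of the 4238 higher in kidney and 4057 of the 4291 higher in lung were called in the same direction there, and 0 and 3 in the opposite one. All 1205 genes higher in kidney by at least 2, and 2015 of the 2016 higher in lung, were called the same way. The difference at 5 months was then tested against the mean of the other 5 ages. By limma 0 of 14081 genes (0.0%) passed, with a smallest adjusted p of 0.213 and 843 genes at an unadjusted p under 0.05, and without the mice that have a library standing apart 0 genes passed and 400 had such an unadjusted p. Mean log2 differences of *Kap*, from the youngest to the oldest of the 6 ages, were 6.97, 6.04, 6.16, 5.42, 4.15 and 7.44. Those of *Slc34a2* were -7.39, -6.45, -6.64, -5.98, -3.23 and -5.18, and those of *Sftpc* lay between -10.34 and -9.33. The direction of these 3 genes was thus the same at every age.

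Both organs came from the same animal, which allows a comparison across mice of genes that follow the clock. Of 12 clock genes that entered through both organs 4 were higher in kidney and 4 in lung. *Arntl*, the clock activator BMAL1, lay between 15.6 and 73.5 RPM in kidney (median 39.6) and between 48.2 and 115 RPM in lung (median 78.0), and was higher in the lung of each of the 9 mice (-1.02, SE 0.18). Its repressor *Nr1d1* was higher in kidney (1.47, SE 0.23), with 21.6 to 42.6 RPM against 3.71 to 22.9 RPM, and the output gene *Hlf* too (2.18, SE 0.39). Over the 9 mice, the log2 levels of *Arntl* in kidney and lung had a Pearson r of 0.90 (exact permutation p = 0.00144, adjusted 0.0288 over 20 genes) and a Spearman rho of 0.93 (exact permutation p = 7.50e-04, adjusted 0.0150).

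The mice with the lowest *Arntl* in kidney, c2254 and c2275, also had the 2 lowest lungs, and the 3 highest kidneys, of mice c2231, c3670 and c3671, had the 3 highest lungs. Without mice c2254 and c2275, the farthest from the kidney median, r was 0.81. No other gene of the 20 passed the adjustment. *Nr1d1* had an r of 0.68 (exact permutation p = 0.0359, adjusted 0.250) and 0.80 without 2 mice, *Per1* had 0.44, and 0.91 without mice c2287 and c3670, and *Bhlhe41* had -0.70 (exact permutation p = 0.0374, adjusted 0.250) and -0.19 without mice c2231 and c3670. As 4 mice have no library that stands apart, r was not computed within them.

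**Figure D5:**
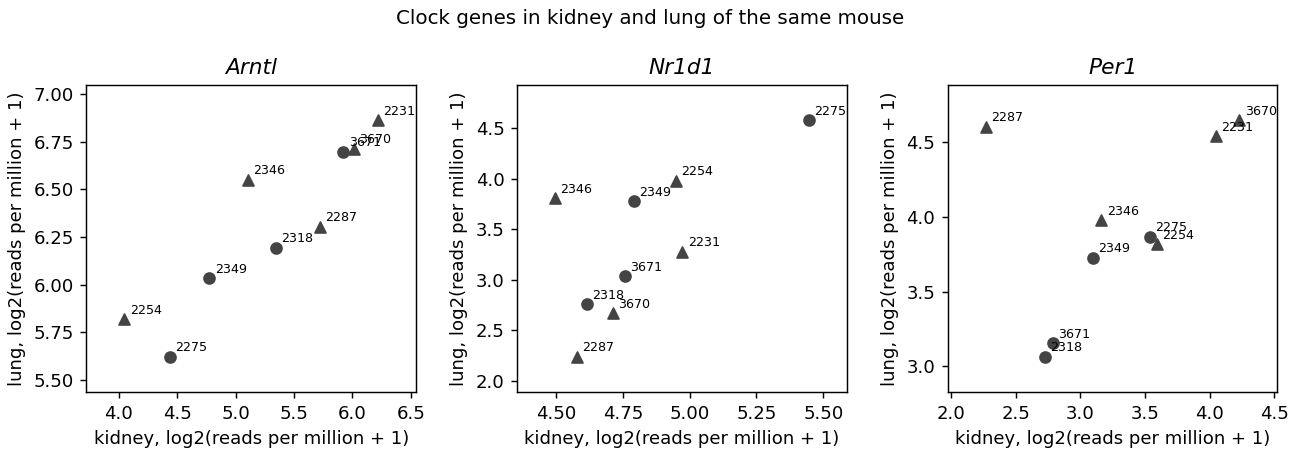
Levels of *Arntl*, *Nr1d1* and *Per1* in kidney (horizontal axis) and lung (vertical axis) of the same mouse, as log2(RPM + 1). Each point is a mouse with its number, and triangles are mice with a library that stands apart. Pearson r over 9 mice is 0.90 for *Arntl*, 0.68 for *Nr1d1* and 0.44 for *Per1*.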

How the data were processed

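RNA of whole organs was read as single ends, aligned by the study with HISAT2 2.1.0 to GRCm38 (mm10) and counted per gene. The authors deposited a table of normalized counts per organ, here treated as signal, made with DESeq2 size factors within each organ. Dividing by the value of 1 read gave whole numbers, within 0.01 reads, for 100% of values in each library. Each library was scaled to 1000000 reads, which does not change with the authors' size factors. Of 51810 genes 33046 had a read, and 14081 reached 5 RPM in 5 of 18 libraries. Of these, 1117 entered through kidney and 2307 through lung alone, so that the limit set the direction of any call among them. Depth ran from 5230524 to 14397811 reads, so that a few reads decide the lowest levels. As the deposited values are normalized rather than raw counts, the main test was limma 3.58.1 (R 4.3.3), trended on mean level, on within-mouse differences of log2(RPM + 1). edgeR 4.0.16 and DESeq2 1.42.0 on recovered reads were alternatives. The block is the mouse number in the labels. Other scalings, pseudocounts and filters, leaving out mice, including the 2 mice with a column name ending in b (kidney of c2275 and lung of c2254), which the sources used here do not explain, thinning to the smallest library and an unpaired fit were alternatives. Deviations of same-numbered organs had an r of -0.24 to 0.23, and 0 kidneys correlated best with their own lung, so the pairing comes from the labels, not from the values.

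The comparison, gene lists and markers were chosen with earlier results of these data known. Besides *Kap* and *Sftpc*, the text names the 10 largest called differences in each direction among genes with 1 sign in all 9 mice and a mean of at least 100 RPM in the higher organ, without Gm and Rik names, and members of 52 lists, those with large differences and those against the majority of their list. Of 541 list genes, 407 were tested, and 50 are listed at 0 in all 18 libraries. The strand setting of the counting is not given in the sources used here, so genes that overlap another, or an antisense gene, are uncertain. Relations across mice used exact permutations (scipy 1.17.1). Promoters were RefSeq windows of GRCm38.p6, and no protein sequence was used here. Scripts were tested on simulated data. Some list members counted in the text are not reported here by name.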

Additional observations from a re-analysis of the deposited data

Results flagged for a closer look

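In 15 of 202 groups of 9 libraries, for a named gene or a list sum on the log2 scale, the most extreme library lay farther from its neighbour than 0.493 of the range, which chance gives in about 1 in 20 groups. The kidney of mouse c2275 was high for Scgb1a1 (18.1 RPM), Pgk1 (392 RPM), Ppia (149.6 RPM), and the summed club cell (23.7 RPM), cardiomyocyte (147.6 RPM) and skeletal muscle lists (67.6 RPM). The kidney of mouse c3670, with 11414 RPM of brain genes, was low for Aqp6 (13.96 RPM), Slc34a3 (2.29 RPM), and the summed thick ascending limb (1195 RPM), smooth muscle (32.5 RPM) and elastic fibre and collagen lists (440.7 RPM). The lung of mouse c2231, with a read in 30828 genes, was low for Aqp1 (9.64 RPM), Ppia (5.37 RPM) and Ywhaz (55.6 RPM), and the lung of mouse c3670 for Tbp (5.34 RPM).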

How the results depend on the processing

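Of 415 list or named genes with a value 341 were called. Of these, 305 had the same call under all 23 settings that gave a value, 36 lost it under 1 or more and 0 changed direction. Leaving out each mouse in turn gave 3939 to 4350 genes higher in kidney and 3970 to 4801 higher in lung, and 1129 to 1299 and 1885 to 2238 with a difference of at least 2. With at least 5 RPM required in 5 libraries of each organ, 2447 genes were higher in lung, and 780 in kidney and 686 in lung by at least 2, as fewer genes are tested. Only 208 of the 341 called genes had a value under that setting, and 0 of these lost the call. Without the 2 mice with a suffixed column (c2275, whose kidney is among the 4 mice, and c2254) 3793 and 3777 genes were called, and 22 of the 341 calls were lost. This was the most under any setting among genes that had a value. The replicate block (the mouse as a pair) changed little: with no replicate block 4446 genes were higher in kidney and 4408 in lung, and for the difference between ages without it 0 genes passed, with 881 at an unadjusted p under 0.05. edgeR gave 4299 and 4004 and DESeq2 4673 and 4647. Quantile normalization moved the median difference of all genes to 0.19 and gave 4819 and 3609, a share of calls higher in kidney that rose with that shift. An F-test over the 6 ages, which asks for any difference between ages, called 1227 genes. Scaling without mitochondrial genes was not run, since these are listed at 0. Genes not called over 9 mice that were called in the opposite direction elsewhere were, in the 4 mice, Apoh (1.42), Fga (1.10), H2-Eb1 (-0.49) and Serpina1a (0.82), without 6 libraries and unpaired, Car3 (0.70), Fga (1.00) and H2-Eb1 (-0.36), and in the 36 mice, Car11 (0.80), Car7 (0.51) and Ptpro (0.69). The cause was not tested. With SEs near 0.3 on the log2 scale, small differences between these organs could not be resolved.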
